A study of Homo sapiens with 7 samples.

Results

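The genes described here are 54 genes of the E2F, G1/S and DNA replication machinery, taken by their symbols from the 58174 genes of the table. They are listed by function in 7 roles, and the list was made with earlier results of these data known. The roles are E2F factors and RB1 (6 genes), G1/S cyclins, kinases and regulators (9), origin licensing (11), helicase activation (6), polymerases, clamp and fork factors (14), nucleotide supply (4) and chromatin duplication (4). Huh-7 is a human liver cancer cell line, and total RNA-seq was made 72 h after its cells were transfected. The control group, siC (3 libraries), received a control siRNA, and the depleted group, siIGF2BP1 (4 libraries), received a pool of siRNAs against IGF2BP1, an RNA-binding protein that shields target mRNAs from decay. Both groups are transfected cells of 1 line. The labels do not say that replicates came from separate cultures, so p-values measure the spread between these libraries only. Abundance is given as FPKM, fragments scaled to gene length and library size, so levels of different genes can be set side by side.

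E2F1, E2F2 and E2F3 activate genes needed to enter S phase and are held back by the retinoblastoma protein RB1 until cyclin D with CDK4 or CDK6, and then cyclin E with CDK2, phosphorylate it. E2F7 and E2F8 are repressors of the same family. In G1 the origin recognition complex, CDC6 and CDT1 load the MCM helicase onto DNA (licensing), and in S phase CDC45 and the GINS complex turn it into the active helicase that the polymerases follow. In bulk RNA, fewer cells in S phase and less of a transcript per cell cannot be told apart.

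The promoters of 4 of the genes are shown because many genes of this machinery carry E2F motifs close to their start and because these 4 had the smallest unadjusted p among those with such a motif. The sequences are from RefSeq (GRCh38.p14), from 250 bases before the transcription start to 50 from the start on, read 5′ to 3′ on the strand of the gene. Capitals mark the E2F motif (TTTCCCGC, TTTCGCGC, TTTGCCGC or TTTGGCGC, on either strand).
GINS3, chr16:58392221-58392520, plus strand: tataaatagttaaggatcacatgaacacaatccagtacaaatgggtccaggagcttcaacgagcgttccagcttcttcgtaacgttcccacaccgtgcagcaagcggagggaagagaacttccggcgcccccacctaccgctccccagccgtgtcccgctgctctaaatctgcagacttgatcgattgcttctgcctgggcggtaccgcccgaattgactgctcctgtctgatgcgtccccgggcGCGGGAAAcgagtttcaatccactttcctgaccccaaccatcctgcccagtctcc
E2F1, chr20:33686336-33686635, minus strand: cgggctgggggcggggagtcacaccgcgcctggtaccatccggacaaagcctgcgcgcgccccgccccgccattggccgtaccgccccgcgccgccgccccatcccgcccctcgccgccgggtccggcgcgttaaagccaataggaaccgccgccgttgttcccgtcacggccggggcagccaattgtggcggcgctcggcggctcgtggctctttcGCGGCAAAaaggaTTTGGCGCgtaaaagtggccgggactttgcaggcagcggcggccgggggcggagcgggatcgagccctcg
E2F2, chr1:23531184-23531483, minus strand: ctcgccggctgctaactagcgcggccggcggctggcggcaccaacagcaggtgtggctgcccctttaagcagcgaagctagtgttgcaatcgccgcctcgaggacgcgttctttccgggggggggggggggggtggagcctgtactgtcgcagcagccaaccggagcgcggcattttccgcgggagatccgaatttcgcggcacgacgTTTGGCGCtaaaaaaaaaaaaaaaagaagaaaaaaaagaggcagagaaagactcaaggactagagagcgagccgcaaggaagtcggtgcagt
GINS1, chr20:25407423-25407722, plus strand: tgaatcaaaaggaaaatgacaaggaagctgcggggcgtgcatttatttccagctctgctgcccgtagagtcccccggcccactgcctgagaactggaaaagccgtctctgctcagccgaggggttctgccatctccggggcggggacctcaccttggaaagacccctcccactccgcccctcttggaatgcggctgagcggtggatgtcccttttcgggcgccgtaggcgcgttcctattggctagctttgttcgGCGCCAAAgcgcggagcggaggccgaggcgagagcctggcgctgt

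With the start site as position 0, the motif began at position -5 in GINS3, at -33 and -20 in E2F1, at -42 in E2F2 and at 5 in GINS1. In GINS3 and GINS1 and at the first of the E2F1 motifs, the letters lay on the strand opposite to the gene. The RefSeq starts of GINS3 and GINS1 lie inside the longer gene spans of the GENCODE annotation. RefSeq promoters were matched for 46 of the 54 genes, and CCND1, CCNE2, CDK2, E2F8, GINS4, MCM4, MCM5 and RPA2 had no entry. An E2F motif was present in 22 of the 46 promoters (47.8%), in 12 of 51 promoters of other genes of the pathway (23.5%) and in 485 of 8550 promoters of genes tested (5.67%). Of all 27305 promoters, 3.33% held one. The CCAAT box was found in 52.2% of the 46 promoters and 37.5% of those of genes tested. The letters TTTGAA or TTCGAA, as in the cell cycle homology region of late cell cycle genes, were found in 6.52% and 11.5%. A match of letters is a description and not a site of binding.

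IGF2BP1 (ENSG00000159217, GRCh38 chromosome 17, 48997385 to 49056145, plus strand) was 81.9, 80.4 and 84.4 FPKM in siC replicates 1 to 3 and 15.6, 15.7, 16.6 and 15.3 FPKM in siIGF2BP1 replicates 1 to 4. The target fell to 19.2% of its siC mean (log2 change -2.37, SE 0.056, limma adjusted p = 1.16e-05). Libraries held from 12826550 to 33212205 reads on genes, which gave from 106 to 19654 reads per gene and library for the 54 genes. The 8 hepatocyte markers were all above 1 FPKM in the mean of siC, with a summed abundance of 5501 to 7244 FPKM in siC and 6541 to 6837 FPKM in siIGF2BP1. The defining leukocyte gene PTPRC, the endothelial gene KDR and the fibroblast gene DCN were at or near 0 in each library. Markers of other cell types that were present were 1 of 5 immune genes above 1 FPKM in siC (summed level 148 to 164 FPKM in siC and 115 to 131 FPKM in siIGF2BP1, nearly all of it lysozyme, LYZ), 2 of 6 fibroblast genes (9.21 to 9.65 and 7.94 to 8.74 FPKM, mostly LUM) and 1 of 4 endothelial genes (2.59 to 3.07 and 2.86 to 3.30 FPKM, PECAM1). Within these sums CD14 (immune) was higher in siIGF2BP1 (mean 0.892 FPKM in siC and 2.25 FPKM in siIGF2BP1, log2 change 1.33, limma adjusted p = 0.0338). COL1A2 (fibroblast) had a higher mean but overlapping groups (1.03 and 1.29 FPKM, log2 change 0.33, adjusted p = 0.437). LYZ (log2 change -0.37, adjusted p = 0.0222) and LUM (-0.38, adjusted p = 0.0235) were lower. The part of these markers in the results was not tested.

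The comparison asked how the E2F and replication genes stood after IGF2BP1 depletion. No gene of the 54 passed the threshold (limma, Benjamini-Hochberg adjusted p under 0.01 over 14839 genes tested), but most had a lower mean in siIGF2BP1, by small amounts. The lowest ratios were those of GINS3 (65.4% of the siC mean), CDK6 (68.9%), E2F7 (71.2%), E2F2 (71.8%) and E2F1 (74.1%). Without siC replicate 3, their highest control, CDK6 was at 84.5% and E2F7 at 87.0%. GINS3 was then at 64.6%, E2F2 at 68.0% and E2F1 at 73.5%, and UHRF1 (72.4%) and LIG1 (75.1%) were also below CDK6 and E2F7. The highest ratios over all 7 libraries were those of CCND3 (125%), MCM3 (118%) and GMNN (112%), and these did not pass either. Without siC replicate 3, their lowest control, they were at 112% (CCND3), 106.5% (MCM3) and 105.8% (GMNN), and RB1 was higher, at 114%. All 54 genes passed the filter of a mean of at least 1 FPKM.

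Counts over the 54 genes stand beside the same counts over all genes tested. At an adjusted p under 0.01, 0 genes were lower and 0 higher, where the background was 2.28% lower and 1.65% higher. The test of recovered reads (voom) placed 1 of the 54, GINS3, past that threshold (adjusted p = 0.00554), beside 3.30% of all genes. At an adjusted p under 0.05, 6 of 54 were lower (background 6.81%): GINS3, E2F1, E2F2, GINS1, CCND1 and GINS2. At an unadjusted p under 0.05, 18 were lower, or 33.3% (background 14.8%), and 0 were higher (background 11.0%). Quantile normalization gave 10 lower (18.5%, background 12.9%) and 2 higher (3.70%, background 12.7%) at that level. Without siIGF2BP1 replicate 1 the lower count was also 10, but the background was not counted for that setting. In 19 genes (35.2%) each siIGF2BP1 library lay below each siC library (background 15.1%), and in 1 gene, GMNN, each lay above (background 11.9%).

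A lower mean in siIGF2BP1 was found for 43 of the 54 genes (79.6%), where the background was 52.9%. With median centring 40 had a lower mean (74.1%, background 48.1%) and with quantile normalization 39 (72.2%, background 49.9%), since E2F8, MCM7 and PRIM1 turned to a higher mean under both and CHAF1A under the latter. The median log2 change of the 54 was -0.14, beside -0.017 for all genes tested. The genes were also summarised in each library as the median log2 distance from the siC mean. This median was 0.054, 0.046 and -0.075 in siC replicates 1 to 3 and -0.15, -0.18, -0.13 and -0.14 in siIGF2BP1 replicates 1 to 4. The 4 depleted libraries therefore lay below the 3 control libraries, with siC replicate 3 nearest to them. Over all genes tested the same medians ran from -0.024 to 0.021.

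**Figure D1:**
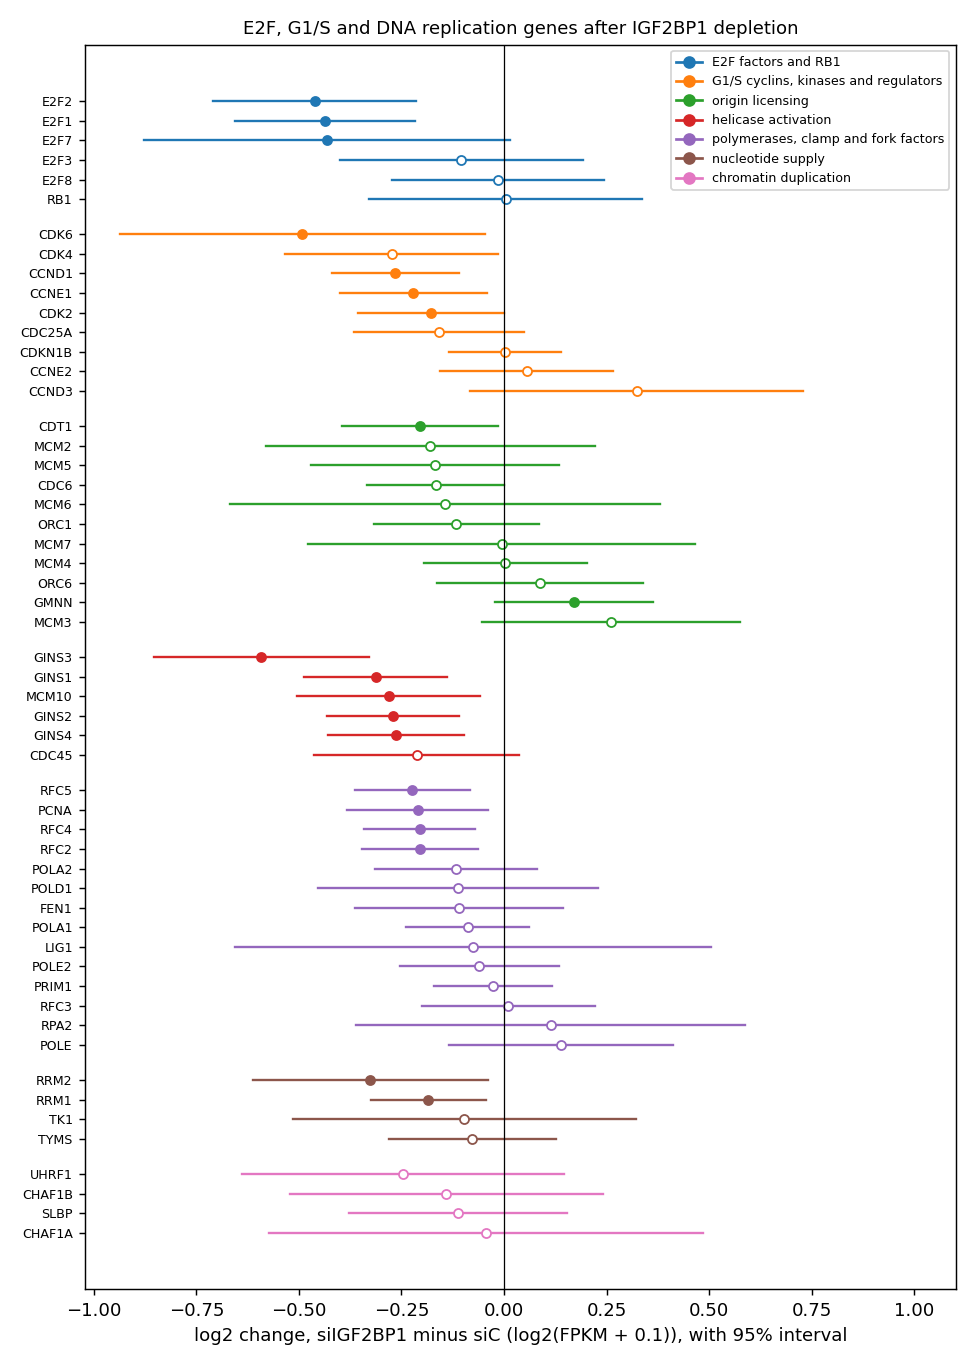
Log2 change (siIGF2BP1 minus siC, log2(FPKM + 0.1) scale, x axis) with its 95% interval for the 54 genes, grouped and coloured by role. Filled points mark genes whose siC and siIGF2BP1 libraries do not overlap: 19 of them lie left of 0 and 1, GMNN, lies right. All 6 helicase activation genes lie left of 0.

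The counts in each role stand beside the same shares of all genes tested. These were 52.9% with a lower mean, 15.1% without overlap and lower, and 11.9% without overlap and higher. Among the E2F factors and RB1, 5 of 6 genes had a lower mean in siIGF2BP1 and 3 had no overlap between groups, with a median log2 change of -0.27. With median centring or quantile normalization E2F8 changed sign, which left 4 of 6 lower. E2F1 (chromosome 20, 33675477 to 33686385, minus strand) was 30.9, 32.2 and 30.7 FPKM in siC replicates 1 to 3 and 23.9, 19.6, 24.8 and 24.3 FPKM in siIGF2BP1 replicates 1 to 4. Its highest depleted library was below its lowest control, and siIGF2BP1 replicate 2 was the lowest of all. The log2 change of E2F1 was -0.44 (SE 0.093, limma adjusted p = 0.0275), and it was -0.45 without siC replicate 3. E2F2, a second activator (chromosome 1, 23506438 to 23531233, minus strand), was a less abundant transcript, at 3.89, 3.80 and 3.24 FPKM in siC and 2.50, 2.46, 2.93 and 2.57 FPKM in siIGF2BP1.

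The groups of E2F2 did not overlap either (log2 change -0.46, SE 0.11, limma adjusted p = 0.0340). The third activator, E2F3, was 6.34, 6.20 and 8.78 FPKM in siC and 6.27, 6.62, 6.66 and 6.53 FPKM in siIGF2BP1. Its control replicates 1 and 2 lay below 3 of the 4 depleted libraries and replicate 3 lay above all of them, so the log2 change of -0.10 (adjusted p = 0.671) became 0.056 without siC replicate 3. E2F7, a repressor that is itself an E2F target, was 2.98, 2.64 and 4.68 FPKM in siC and 2.28, 2.50, 2.55 and 2.46 FPKM in siIGF2BP1. No depleted library reached a control, but siC replicate 3 stood at 167% of the mean of the other controls, and the log2 change of -0.43 (adjusted p = 0.205) was -0.19 without it.

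The second repressor, E2F8, was 7.29, 8.55 and 9.90 FPKM in siC and 9.04, 8.40, 8.48 and 7.85 FPKM in siIGF2BP1. The depleted libraries lay inside the control range, with a log2 change of -0.014 and a 95% interval from -0.27 to 0.24. RB1, the pocket protein that binds the activators, was 14.8, 15.9 and 22.3 FPKM in siC and 16.8, 18.9, 16.8 and 17.4 FPKM in siIGF2BP1. Here too the depleted libraries lay between siC replicates 2 and 3 (log2 change 0.0036, 95% interval from -0.33 to 0.34, and 0.18 without siC replicate 3). RB1 overlaps the protein-coding genes LPAR6 and RCBTB2 on the other strand, and whether reads were counted by strand is not stated.

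Among the G1/S cyclins, kinases and regulators, 6 of 9 genes had a lower mean and 4 had no overlap. CCND1, cyclin D1, the partner of CDK4 and CDK6 (chromosome 11, 69641156 to 69654474, plus strand), was 57.0, 56.5 and 59.2 FPKM in siC and 46.6, 44.8, 49.2 and 51.3 FPKM in siIGF2BP1. The control libraries were close together and all above the depleted ones (log2 change -0.26, SE 0.066, limma adjusted p = 0.0454). CDK6 was 11.5, 12.1 and 19.8 FPKM in siC and 9.89, 11.0, 9.58 and 9.37 FPKM in siIGF2BP1. Its groups did not overlap, but siC replicate 3 stood at 168% of the mean of the other controls, and the log2 change of -0.49 (adjusted p = 0.155) was -0.24 without it.

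CDK4, the other kinase of cyclin D, was 68.5, 67.9 and 51.9 FPKM in siC and 51.0, 48.1, 54.1 and 52.9 FPKM in siIGF2BP1. The siC replicate 3 value lay within the depleted range, and the log2 change of -0.27 (limma adjusted p = 0.173) was -0.40 without that library (adjusted p = 0.00414). CCNE1, cyclin E1, was 11.7, 11.3 and 9.80 FPKM in siC and 8.92, 9.56, 9.32 and 9.49 FPKM in siIGF2BP1. The groups of CCNE1 were separate but close (log2 change -0.22, adjusted p = 0.118, and -0.29 with adjusted p = 0.00883 without siC replicate 3). CDK2, the kinase of cyclin E, was 15.9, 16.3 and 15.9 FPKM in siC and 12.8, 13.9, 14.5 and 15.6 FPKM in siIGF2BP1 (log2 change -0.18, adjusted p = 0.195), with siIGF2BP1 replicate 4 just under the controls.

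Cyclin D3, CCND3, had the lowest mean level of the 54 genes and the highest ratio. It was 2.06, 1.86 and 1.33 FPKM in siC and 2.04, 1.95, 2.35 and 2.40 FPKM in siIGF2BP1. The groups overlapped through siC replicate 1, and the log2 change was 0.32 (adjusted p = 0.294), or 0.15 without siC replicate 3. The remaining 3 genes of the role were the phosphatase gene CDC25A (log2 change -0.16), the CDK inhibitor gene CDKN1B (0.0022) and CCNE2 (0.055), whose groups overlapped. CCND1 (LTO1), CDK2 (PMEL), CDK4 (MARCHF9 and TSPAN31), CDKN1B (GPR19) and CCNE2 (INTS8 and NDUFAF6) overlap protein-coding genes on the other strand.

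**Figure D2:**
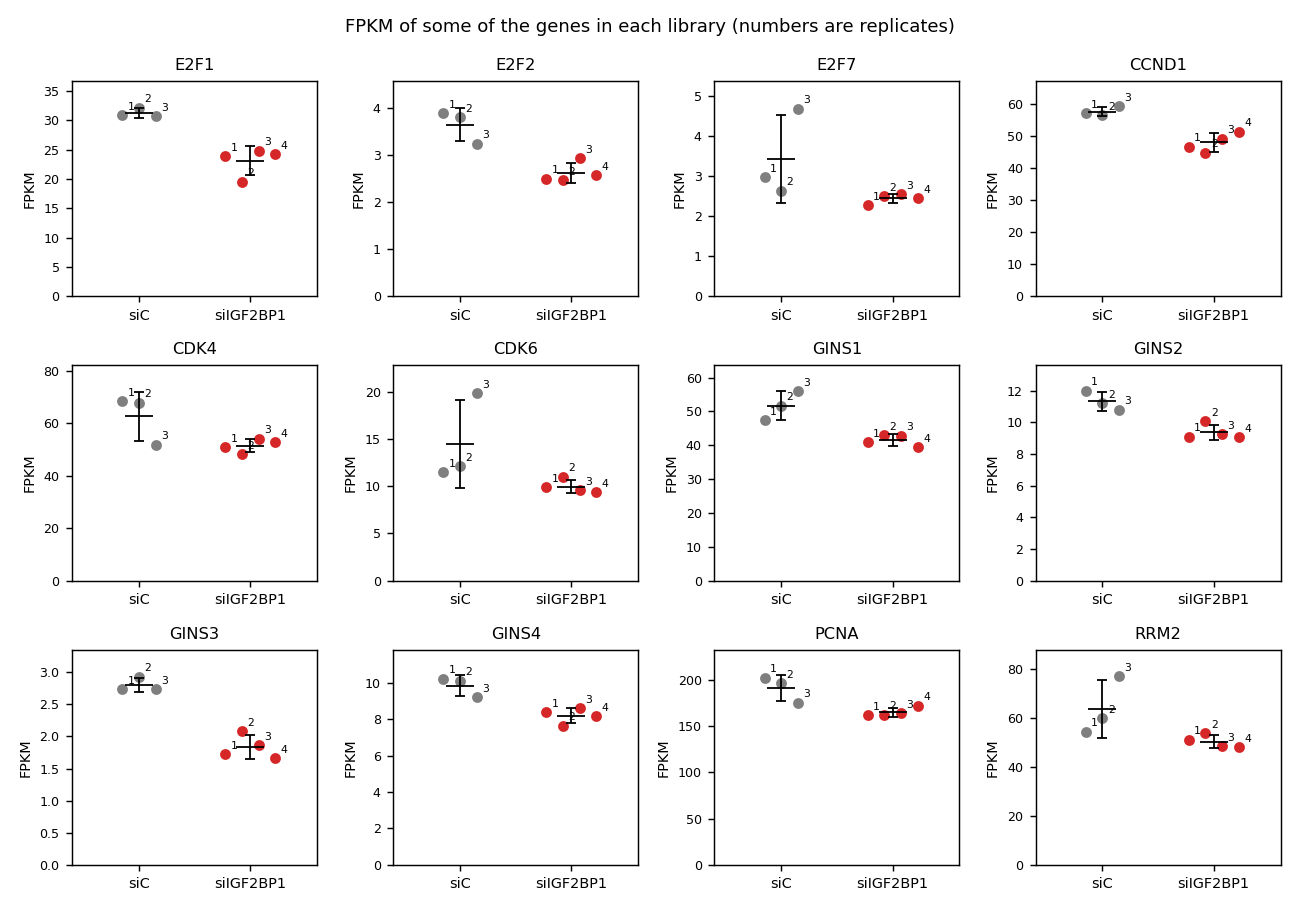
Abundance (FPKM, y axis from 0) of 12 of the genes in each library, with siC in grey and siIGF2BP1 in red. Each point is 1 library with its replicate number, and bars give the mean ± SD over 3 siC and 4 siIGF2BP1 libraries. In 11 of the 12 panels each red point lies below each grey point, and in CDK4 siC replicate 3 lies among the red points. The 12 were picked for display, all with a lower mean, and do not stand for the 54 genes. Over the 54, 19 (35.2%) were without overlap and lower, beside 15.1% of all genes tested.

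Of the helicase activation genes, 6 of 6 had a mean below siC (background 52.9%) and 5 of 6 had no overlap (background 15.1%). Their median log2 change was -0.28, and none passed the threshold. All 6 stayed lower with median centring and with quantile normalization. The 4 GINS subunits, which with CDC45 and the MCM ring form the replicative helicase, had log2 changes from -0.59 to -0.26. GINS3 (chromosome 16, 58295080 to 58406147, plus strand) was 2.74, 2.93 and 2.73 FPKM in siC and 1.72, 2.08, 1.86 and 1.66 FPKM in siIGF2BP1. This was the smallest p of the 54 genes (log2 change -0.59, SE 0.11, 95% interval from -0.85 to -0.33, limma adjusted p = 0.0174), on 110 to 479 reads per library. GINS1, the most abundant subunit (chromosome 20, 25391008 to 25452700, plus strand), was 47.4, 51.7 and 56.0 FPKM in siC and 40.9, 42.9, 42.8 and 39.4 FPKM in siIGF2BP1.

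Again each depleted library of GINS1 was below each control (log2 change -0.31, SE 0.074, limma adjusted p = 0.0387). GINS2 was 11.98, 11.2 and 10.8 FPKM in siC and 9.10, 10.1, 9.25 and 9.06 FPKM in siIGF2BP1 (log2 change -0.27, SE 0.068, adjusted p = 0.0471). GINS4 was 10.2, 10.1 and 9.21 FPKM in siC and 8.39, 7.65, 8.61 and 8.16 FPKM in siIGF2BP1 (log2 change -0.26, SE 0.071, adjusted p = 0.0573). The 4 subunits thus had no overlap between groups, and without siC replicate 3 their log2 changes were -0.61 (GINS3), -0.25 (GINS1), -0.30 (GINS2) and -0.31 (GINS4), with adjusted p from 0.0141 to 0.0218. With the trend of GC content removed, GINS3, GINS1 and E2F2 were past the threshold (adjusted p = 0.00797, 0.00746 and 0.00795), or 5.56% of the 54 genes beside a background of 4.15% lower. GINS1 overlaps NINL and GINS2 overlaps GSE1 on the other strand.

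MCM10, which binds the helicase when origins fire, was 14.8, 15.3 and 17.5 FPKM in siC and 12.6, 14.5, 11.8 and 13.3 FPKM in siIGF2BP1 (log2 change -0.28, SE 0.095, limma adjusted p = 0.112). Its siIGF2BP1 replicate 2 was the depleted library nearest to the controls. CDC45 was the 1 gene of the role with overlap, since siC replicate 3 (19.1 FPKM) lay below all depleted libraries (19.3 to 20.4 FPKM), and its log2 change was -0.21 with and -0.35 without that library.

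Origin licensing gave a mixed picture, with 7 of 11 means lower, 1 gene without overlap below the controls (CDT1) and 1 above (GMNN). CDT1, the loader of the MCM ring, was 26.2, 24.6 and 24.7 FPKM in siC and 21.8, 19.3, 23.7 and 22.6 FPKM in siIGF2BP1 (log2 change -0.21, SE 0.081, limma adjusted p = 0.165). CDC6, its partner, was 35.7, 36.3 and 31.4 FPKM in siC and 32.3, 30.0, 29.8 and 30.6 FPKM in siIGF2BP1. The groups of CDC6 overlapped through siC replicate 3 (log2 change -0.17, adjusted p = 0.196). GMNN, geminin, the inhibitor of CDT1, was 30.1, 31.2 and 25.5 FPKM in siC and 33.6, 31.3, 32.7 and 32.1 FPKM in siIGF2BP1, the opposite order to CDT1, with a log2 change of 0.17 (adjusted p = 0.245), or 0.081 without siC replicate 3.

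The MCM subunits, the ring of the helicase, differed from each other in sign. Their log2 changes were -0.18 (MCM2), 0.26 (MCM3), 0.0030 (MCM4), -0.17 (MCM5), -0.14 (MCM6) and -0.0059 (MCM7). All 6 had overlapping groups, and siC replicate 3 was the lowest control in 5 of them and the highest in MCM6. Without that library the log2 changes were -0.40 (MCM2), 0.089 (MCM3), -0.091 (MCM4), -0.32 (MCM5), 0.12 (MCM6) and -0.28 (MCM7), with the sign of MCM4 and MCM6 turned. MCM7 was 138, 140 and 79.0 FPKM in siC and 114, 108, 117 and 120 FPKM in siIGF2BP1, so that the depleted libraries lay between the controls. MCM2 was 108, 104 and 66.9 FPKM in siC and 81.3, 72.7, 82.5 and 85.0 FPKM in siIGF2BP1, in the same order. MCM6 stood the other way, at 26.6, 29.5 and 48.5 FPKM in siC and 30.2, 38.1, 26.8 and 27.9 FPKM in siIGF2BP1. MCM7 turned to a higher mean with median centring and with quantile normalization. The origin recognition genes ORC1 (log2 change -0.12) and ORC6 (0.087) also overlapped.

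Of the 14 polymerase, clamp and fork genes, 11 had a lower mean, 10 with median centring or quantile normalization, and 4 had no overlap. These 4 were the sliding clamp PCNA and the clamp loader subunits RFC2, RFC4 and RFC5. PCNA, the most abundant of the 54 genes (mean 176 FPKM), was 202, 196 and 175 FPKM in siC and 162, 162, 164 and 172 FPKM in siIGF2BP1. The closest pair was siC replicate 3 and siIGF2BP1 replicate 4, with a log2 change of -0.21 (SE 0.073, limma adjusted p = 0.121), or -0.27 without siC replicate 3 (adjusted p = 0.00618). RFC5 was 15.3, 14.5 and 15.6 FPKM in siC and 12.8, 12.5, 12.9 and 13.6 FPKM in siIGF2BP1 (log2 change -0.22, adjusted p = 0.0559).

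RFC4 was 17.5, 18.7 and 17.0 FPKM in siC and 15.4, 15.5, 14.9 and 15.6 FPKM in siIGF2BP1 (log2 change -0.21, limma adjusted p = 0.0645). RFC2 was 14.9, 14.5 and 15.7 FPKM in siC and 12.9, 12.4, 13.2 and 13.6 FPKM in siIGF2BP1 (log2 change -0.21, adjusted p = 0.0743). These 3 loader subunits were therefore similar in level and in difference, whereas RFC3 was 37.6 FPKM in the mean of siC and 37.8 FPKM in siIGF2BP1 (log2 change 0.010, 95% interval from -0.20 to 0.22). RFC4 overlaps EIF4A2 and RFC5 overlaps WSB2 on the other strand. The polymerase genes POLA1, POLA2, PRIM1, POLD1, POLE and POLE2 overlapped, with log2 changes from -0.12 to 0.14, as did FEN1 (-0.11), LIG1 (-0.076) and RPA2 (0.11), which mature Okazaki fragments or cover single strands.

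All 4 nucleotide supply genes had a lower mean, and both subunits of ribonucleotide reductase, which makes deoxynucleotides, had no overlap. RRM1 was 25.0, 24.6 and 27.0 FPKM in siC and 21.5, 22.5, 22.8 and 22.9 FPKM in siIGF2BP1 (log2 change -0.18, SE 0.059, limma adjusted p = 0.0987). RRM2, the subunit that follows S phase, was 54.3, 59.7 and 76.9 FPKM in siC and 51.0, 53.8, 48.3 and 47.9 FPKM in siIGF2BP1. Its control libraries were spread more widely than the depleted ones, and the log2 change of -0.33 (SE 0.12, adjusted p = 0.146) was -0.18 without siC replicate 3. The thymidylate genes TYMS (log2 change -0.078) and TK1 (-0.097) overlapped.

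The chromatin duplication genes had lower means in 4 of 4, or 3 with quantile normalization, and overlapped in each case. They were UHRF1, which brings the maintenance methyltransferase to new DNA (log2 change -0.25), the histone chaperone subunits CHAF1A (-0.044) and CHAF1B (-0.14), and SLBP, the binder of histone mRNA (-0.11). Over the 25 genes whose values are not all printed, log2 changes ran from -0.25 (UHRF1) to 0.26 (MCM3), 17 lower and 8 higher, with at least 155 reads in each library.

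The library siC replicate 3 stood apart from the other controls. Over the 54 genes it lay below both other controls in 34 (63.0%) and above both in 18 (33.3%), beside 47.9% and 41.9% of all genes tested. Its log2 distance from siC replicates 1 and 2 went with the GC content of the gene's longest transcript (Spearman's rho -0.66 across the 54 genes, -0.43 across the 14711 genes with a GC value), a description across genes that share these libraries. Of the GC-rich genes, LIG1 was at 49.2%, CHAF1A at 52.9% and MCM7 at 56.8% of the mean of siC replicates 1 and 2. Of the GC-poor genes, MCM6 was at 173% and CDK6 at 168%. Not all genes went this way. The GC-rich genes CDT1 (64.3% GC) and E2F1 (61.6% GC) were at 97.1% and 97.4%, and CCNE2, with the lowest GC content (36.9%), was at 96.3%. In siIGF2BP1 replicate 2 the same relation was seen over a smaller range (rho -0.73 across the 54 genes and -0.39 across all), and the distances of both libraries had a rho of 0.69 across the 54. These genes were named after their values were seen, and the part of this distance in the group difference was not tested beyond the values that follow.

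**Figure D3:**
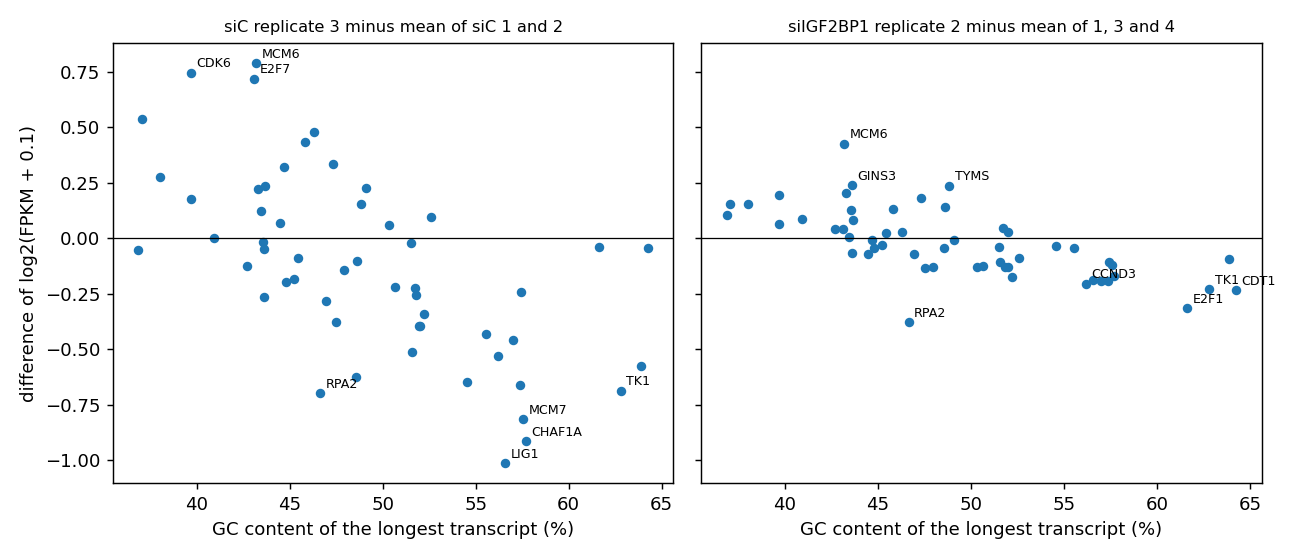
Distance of siC replicate 3 from siC replicates 1 and 2 (left) and of siIGF2BP1 replicate 2 from replicates 1, 3 and 4 (right), as a difference of log2(FPKM + 0.1), against the GC content (%) of the longest transcript. Each point is 1 of the 54 genes. In both panels most points lie above 0 at low GC and below 0 at high GC, and the range is wider on the left. On the left CCNE2, at the lowest GC, and CDT1 and E2F1, at high GC, lie near 0.

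Without siC replicate 3, 8 of the 54 genes (14.8%) were past the threshold and lower (limma, adjusted p under 0.01, background 6.67%). None was higher (background 3.59%). They were CDK4, PCNA, CCNE1, UHRF1, CDC45, MCM2, POLD1 and LIG1, with log2 changes from -0.46 (UHRF1) to -0.27 (PCNA). In each of these 8, siC replicate 3 was the lowest of the controls, at 49.2% (LIG1) to 87.9% (PCNA) of the mean of the other controls. At an unadjusted p under 0.05, 32 were lower, or 59.3% (background 23.1%), and 1 higher (background 15.2%). The median log2 change became -0.20, beside -0.031 for all genes tested, and 44 of 54 means were lower (81.5%, background 54.5%). By role, the median moved most for chromatin duplication, from -0.13 to -0.35, and for the E2F factors and RB1, from -0.27 to -0.068, whereas helicase activation went from -0.28 to -0.31. When siIGF2BP1 replicate 2 was left out as well, 13 genes were past the threshold and lower (24.1%, background 7.03%), and the median was -0.19, beside -0.037 for all genes.

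**Figure D4:**
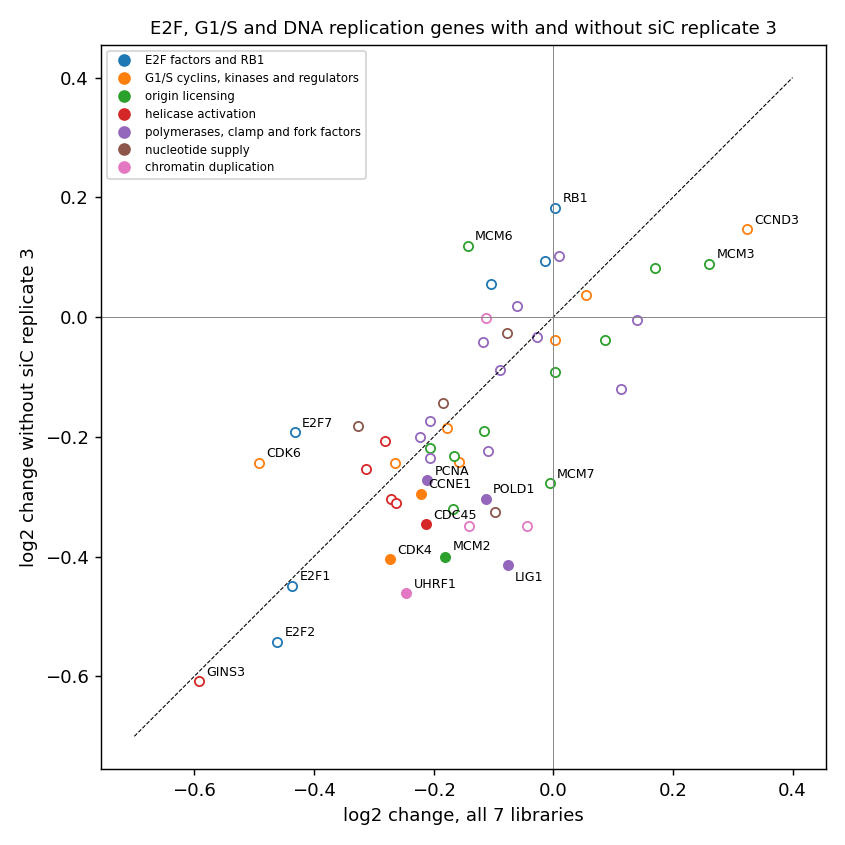
Log2 change of the 54 genes over all 7 libraries (x axis) and without siC replicate 3 (y axis), coloured by role, with the line of equal values dashed. Filled points are the 8 genes with an adjusted p under 0.01 without that library. CDK6, E2F7, MCM6 and RB1 lie above the line, CDK4, MCM2, LIG1 and UHRF1 lie below it, and GINS3 and E2F1 lie on or near it.

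The 46 genes with a RefSeq promoter were also set side by side by the E2F motif shown above. Of the 22 with a motif, 19 had a lower mean and 7 had no overlap, with a median log2 change of -0.15. Of the 24 without one, 19 had a lower mean and 9 had no overlap, with a median of -0.13. Genes with and without the letters therefore had similar values, and the difference was not tested.

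A further 61 genes of the same pathway, listed by function, were taken beside the 54, and 57 of them passed the filter. CCND2, CDKN1C, MCM9 and TK2 did not and were not tested. Of the 57, 1 fell and 0 rose (limma, adjusted p under 0.01), and at an unadjusted p under 0.05, 7 were lower and 1 higher. These shares, 1.75% lower at the threshold, 12.3% lower and 1.75% higher at the unadjusted p, were below those of all genes tested (2.28%, 14.8% and 11.0%). A lower mean was found for 39 of 57 (68.4%, background 52.9%), with a median log2 change of -0.060. With quantile normalization 30 were lower (52.6%, background 49.9%), with a median of -0.019, so the share was close to the background. With median centring 33 were lower (57.9%, background 48.1%). The gene that fell was DTYMK, thymidylate kinase, which phosphorylates dTMP on the way to dTTP (chromosome 2, 241675747 to 241686944, minus strand). DTYMK was 57.6, 56.4 and 46.6 FPKM in siC and 29.3, 26.3, 26.9 and 28.5 FPKM in siIGF2BP1, so that the groups were far apart. It was at 51.9% of its siC mean (log2 change -0.94, SE 0.090, adjusted p = 0.00154), a larger difference than that of any of the 54 genes, and its adjusted p was 0.0116 without siC replicate 2 and 0.0101 without siIGF2BP1 replicate 3.

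CDKN1A, the CDK inhibitor p21, was the 1 higher gene at that level, at 1.997, 1.82 and 1.45 FPKM in siC and 2.53, 2.71, 2.89 and 2.60 FPKM in siIGF2BP1 (log2 change 0.59, SE 0.13, limma adjusted p = 0.0295). Each depleted library was above each control, and the level was low in both groups. Other CDK inhibitor genes of the pathway did not share this direction as a set. CDKN1C, under the filter and not tested, went from a mean of 1.42 FPKM in siC to 0.432 FPKM in siIGF2BP1. Log2 changes were -0.28 (CDKN2B, limma adjusted p = 0.139), -0.12 (CDKN2C), -0.033 (CDKN2A) and 0.21 (CDKN2D). MCMBP, a binding partner of the MCM ring, was 17.4, 17.6 and 20.03 FPKM in siC and 15.4, 15.8, 14.9 and 14.5 FPKM in siIGF2BP1 (log2 change -0.27, adjusted p = 0.0498). E2F4, an E2F that acts with pocket proteins as a repressor, was 15.5, 15.2 and 13.6 FPKM in siC and 12.5, 11.0, 12.8 and 12.1 FPKM in siIGF2BP1 (log2 change -0.29, adjusted p = 0.0619). The groups of both genes did not overlap, and neither passed the threshold.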

How the data were processed

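Total RNA-seq of 3 siC and 4 siIGF2BP1 libraries was analysed, with groups and replicate numbers taken from the sample titles. According to the study's methods, ribosomal RNA was depleted and libraries were made with a directional kit. The authors used cutadapt 1.14 to clip reads and HISAT2 2.1.0 to align to GRCh38, processed alignments with SAMtools 1.5, counted reads per gene with featureCounts 1.5.3 over Ensembl release 89 and deposited FPKM values scaled with TMM (edgeR 3.18.1). Whether counting used the strand is not stated. The deposited log2 fold changes, p-values and FDR of the authors were not used. Columns of sample values without a label numbered 0.

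FPKM are not counts, so limma 3.58.1 (R 4.3.3) with a mean-variance trend was run on log2(FPKM + 0.1) for the 14839 genes whose mean reached 1 FPKM, two-sided, with Benjamini-Hochberg adjustment over all of them and the study's threshold of 0.01. A log2 change is the siIGF2BP1 mean less the siC mean on that scale, and understates changes of low genes. The product of FPKM and length was a whole multiple of 1 read for 100.0% of values (tolerance 0.01), which gave reads and depth. The fit was tested on simulated data.

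The genes and lists were chosen with earlier results of these data known. Values in each library are given for genes past the threshold, the 20 with the smallest p, the E2F factors and RB1, and the genes of highest and lowest mean (25 in all), for GMNN, MCM2, MCM6 and MCM7, which were chosen after their values were seen, for pathway genes past the threshold and the 3 others of smallest p, and for IGF2BP1. Gene positions and overlaps are from GENCODE on GRCh38. Alternatives were another pseudocount, other filters and scalings, array weights, voom, removal of a GC trend, a replicate block, a threshold of 0.05 and the omission of single libraries.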

Additional observations from a re-analysis of the deposited data

Results flagged for a closer look

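In groups of 4 libraries, 3 of 59 genes examined had 1 siIGF2BP1 library far from the others by Dixon's ratio (gap to the nearest library over the range, above the 95% critical value for 4 samples), and about 2.95 are expected by chance at this level. TK1 in siIGF2BP1 replicate 2 was 61.2 FPKM, below the other depleted libraries (71.5 to 72.3 FPKM), with a ratio of 0.926. ORC6 in the same library was 11.6 FPKM, below 12.6 to 12.9 FPKM in the others, with a ratio of 0.833. UHRF1 in siIGF2BP1 replicate 1 was 13.8 FPKM, above 12.6 to 12.7 FPKM in the others, with a ratio of 0.912. None of these genes was past the threshold over all 7 libraries (limma adjusted p from 0.417 to 0.788), and UHRF1 was past it without siC replicate 3.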

How the results depend on the processing

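The count of the 54 genes past the threshold and lower (0) was 32 with array weights (59.3%, beside 21.9% of all genes), which gave siC replicate 2 a weight of 29.2 and siC replicate 3 one of 0.0729, 1 with voom, 3 with the GC trend removed, 6 at an adjusted p under 0.05, 0 to 8 when single libraries were left out and 13 without siC replicate 3 and siIGF2BP1 replicate 2. It stayed 0 with a pseudocount of 1, without a filter, with a filter at a mean of 5 FPKM, median centring and quantile normalization, and the higher count was 0 in all alternatives. At an unadjusted p under 0.05, the lower count (18) was 10 with quantile normalization, 35 with array weights (64.8%, beside 34.8% of all genes), 10 to 32 with single libraries left out and 33 without both libraries, and the higher count (0) was 2, 4, 0 to 2 and 3 in the same alternatives and 2 with the GC trend removed. The share of all genes lower was 23.1% without siC replicate 3 and 24.2% without both, and was not counted for the other omissions. Genes without overlap and lower (19) were 19 to 35 with single libraries left out and 37 without both, where the share of all genes (15.1%) also went to 29.3% without siC replicate 3 and 33.1% without both. They were fewer with quantile normalization (13, or 24.1%, beside 13.7% of all genes) and median centring (15, or 27.8%, beside 13.2%). With the GC trend removed they were 18 (33.3%, beside 17.6%), and with a filter at a mean of 5 FPKM 16. The median log2 change (-0.14) was -0.087 with quantile normalization, -0.20 with array weights, -0.20 to -0.12 with single libraries left out and -0.19 without both. Pathway genes past the threshold (1) were 18 with array weights (26.3% lower and 5.26% higher, beside 21.9% and 14.6% of all genes). They were 3 with the GC trend removed (3.51% lower and 1.75% higher, beside 4.15% and 2.69%). At 0.05 they were 3 (2 lower and 1 higher of 57, beside 1010 and 703 of 14839 genes). They were 0 to 1 with single libraries left out and 3 without both (5.26% lower, beside 7.03%). The loss without siC replicate 2 or siIGF2BP1 replicate 3 was DTYMK.

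Of the 34 genes given in every library, 29 kept their direction in all alternatives run. Of the 34, 20 were taken for the smallest p in the main fit of these libraries, and the pathway genes were taken by p too. The genes that reversed were all listed for other reasons. The count therefore follows in part from the selection and does not measure how stable direction is in genes not picked by p. E2F3 reversed to 0.059 (array weights), 0.056 (without siC replicate 3; -0.19 to 0.056 over single libraries) and 0.049 (without both). E2F8 reversed to 0.015 (median centring), 0.028 (quantile normalization), 0.0034 (array weights), 0.020 (replicate block) and 0.095 (without both), and ran from -0.12 to 0.093 with single libraries left out. RB1 reversed to -0.0030 (GC trend removed) and -0.015 (replicate block with the GC trend removed), and ran from -0.11 to 0.18. MCM6 reversed to 0.0047 (array weights) and 0.013 (without both), and ran from -0.31 to 0.12 with single libraries left out. MCM7 reversed to 0.023 (median centring), 0.091 (quantile normalization), 0.0045 (voom) and 0.0033 (GC trend removed), and ran from -0.28 to 0.13. The cause of these shifts was not tested.

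Libraries of equal replicate number had deviations with correlations of -0.026, -0.12 and -0.11, and no library correlated best with its own number. The labels do not say whether equal numbers share a culture. These correlations cannot decide it, since deviations that go with GC content enter them too. With the replicate number as a block, 6 genes were lower at an unadjusted p under 0.05, 0 were past the threshold, the median was -0.15 and 0 pathway genes were past it, also 0 with the block and the GC trend removed. The share of all genes was not counted with the block. Depth limits the genes of few reads, such as CCND3, with 106 reads in its lowest library.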
